A study of Mus musculus with 22 samples.

Results

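The genes described here are 37 genes of protein folding in the endoplasmic reticulum (ER) and of the unfolded protein response, read in mouse liver before and after removal of the pituitary and after growth hormone (GH). The members were chosen by name: every array probe that mapped to a listed gene through its RefSeq accession or its gene name was taken, and the brightest probe stood for the gene. Of the 37 genes, 36 were measured, out of 33767 gene names on the arrays, and Atf6 had no matched probe. The 36 measured members were all among the 26207 genes tested. Each was well above background in at least 90% of the 44 channels, and none was saturated.

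Secretory cells fold their proteins in the ER, and the liver secretes most of the proteins of blood plasma. When unfolded protein builds up there, sensors in the ER membrane signal to the nucleus. IRE1 (gene Ern1) splices the mRNA of the transcription factor XBP1, ATF6 is cut into an active factor, and both raise ER chaperones, disulfide isomerases, and genes of protein import and of ER-associated degradation. PERK (gene Eif2ak3) slows translation and favours the transcription factor ATF4, which acts on genes of amino acid metabolism and stress such as Asns, Trib3, Chac1 and Ddit3. For the comparison of these arms, 26 members of chaperoning, folding, degradation and import were taken as the XBP1/ATF6-type genes, 7 members (Atf4, Atf3, Ddit3, Trib3, Asns, Chac1 and Ppp1r15a) as the ATF4-type genes, and Ern1, Eif2ak3, Xbp1 and Atf6 as the sensors and their factors. The probes give total transcript and not the splicing of Xbp1 or any protein.

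The 10 groups were ICR mice with an age of 8 wk in the labels. Sham-operated, vehicle-injected males (7 mice) and females (8 mice) are labelled intact and untreated. Hypox males (6 mice) and Hypox females (7 mice) had lost the pituitary as adults, and so had every mouse that received GH. GH was given to Hypox mice as 1 injection with death 30 min later (7 males, 7 females), as 1 injection with death 90 min later (7 males, 7 females), or as 2 injections 4 h apart with death 30 min after the second (8 males, 6 females). Hypophysectomy removes the other pituitary hormones as well as GH. Liver RNA was pooled within a group (2 to 5 mice a pool), amplified, and set against another group on 2-colour Agilent arrays: 22 arrays made 11 comparisons, each on 2 arrays of opposite dye. Some pools recur on several arrays, and both male Hypox pools of the arrays for 2 injections held 5 of the 6 mice. The p-values measure the spread between such arrays, which may be partly technical. For the comparison of 2 injections in females, the design text names male Hypox mice as the reference and the sample labels name females. The labels were followed, and the Y-linked Eif2s3y was at −0.02 and 0 on its 2 arrays.

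Every value is a log2 ratio of the first named group over the second, and values of single arrays are given as replicate 1 and replicate 2 before the estimate ± SE of the limma fit to all 22 arrays. A gene is called higher or lower at a Benjamini-Hochberg adjusted p under 0.05, over all genes tested in that comparison, with both arrays on the same side of 0. Counts of members at an unadjusted p under 0.05 are given without the share of all genes at that threshold. They cannot be set against the shares of called genes beside them. The share of spots well above background lay between 57.1% and 77.7% per channel. The 57.1% was that of the Hypox channel on replicate 2 of Hypox over sham females, and every other channel was at 69.3% or above. That array also had the most spots flagged as outliers, 159. The hepatocyte markers Alb, Ttr, Apoa1 and Ahsg were well above background in 44 of 44 channels. Most sex-linked and GH-responsive control genes followed the labels: Eif2s3y was at 6.31 and 7.04 in sham males over sham females, and Socs2, an early GH target, was at 3.07 and 3.58 in males 90 min after GH. An exception was the sex-linked Xist, called lower in Hypox over sham females, a comparison within 1 sex (−0.41 and −1.92). Skeletal muscle RNA was uneven between pools. In sham males over sham females the 10 muscle markers had a median of 2.44 and 2.89, and in Hypox over sham males −2.63 and −2.98, with all 10 on the same side of 0. On 4 arrays the muscle markers stood apart on 1 array of the pair. These were replicate 1 of males 30 min after GH, of males 90 min after GH and of males over females 30 min after GH, and replicate 2 of males after 2 injections. The last also carried RNA of the exocrine pancreas, with a median of 3.65 over 9 acinar markers against 0.48 on replicate 1.

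**Figure D1:**
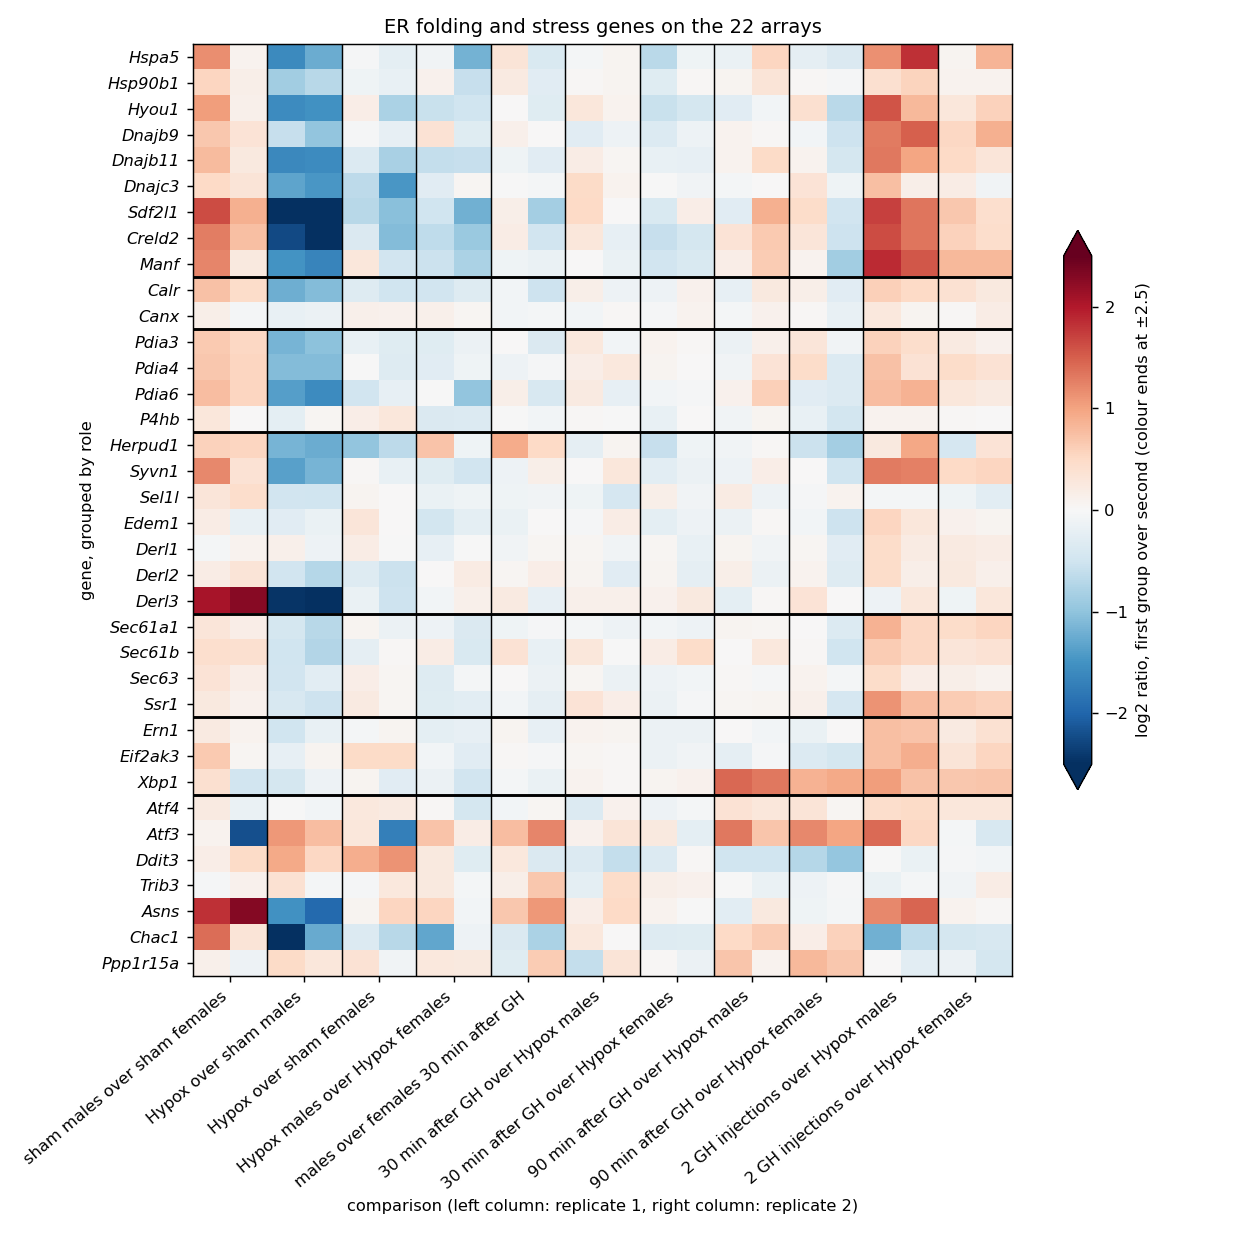
Log2 ratios of the 36 measured members (in order of role) on each of the 22 arrays, 2 columns per comparison, red where the first named group is higher and blue where the second is, with colours ending at ±2.5. The chaperone, isomerase and degradation genes are mostly blue in Hypox over sham males (median of the 26 XBP1/ATF6-type genes −1.09) and mostly red after 2 GH injections in males (0.56), and Xbp1 stands out as red 90 min after GH in both sexes.

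The sequences through which these genes are known to answer ER stress were read from RefSeq promoters (build GRCm38.p6, 250 bases before to 50 after the annotated start), which 32 of the 37 members had. The ER stress response element (ERSE), spelled CCAAT, then 9 bases of any kind, then CCACG, binds NF-Y at its CCAAT and ATF6 or XBP1 at its CCACG. Both strands were searched for it and for the motifs below, and it was found in 9 of the 22 XBP1/ATF6-type genes with a promoter: Hspa5, Hsp90b1, Dnajc3, Creld2, Calr, Canx, Pdia6, Syvn1 and Derl3. Its shorter form ERSE-II, spelled ATTGG, then 1 base of any kind, then CCACG, was found in Dnajb11 and Herpud1. Among all 32851 promoter windows of the same length, 0.119% held an ERSE and 0.0365% an ERSE-II. No ERSE or ERSE-II was in the windows of the 7 ATF4-type genes or of Ern1, Eif2ak3 and Xbp1. The CEBP-ATF element TGATGNAA, which ATF4 binds with a C/EBP partner, was in 4 of the 7 ATF4-type genes (Atf3, Trib3, Asns and Chac1) and in Herpud1, against 3.97% of all windows. The core of the unfolded protein response element, TGACGTG, was in Hspa5 alone among the members, against 2.01% of all windows. A match is a description of the letters and not a shown binding site. The stretches below are those of the members on which the comparisons turn, written 5′ to 3′ on the strand of the gene with the match in capitals. In Creld2 and Derl3 the match lies on the other strand, so its capitals read CGTGG first. Canx is shown because it holds an ERSE and was called in none of the comparisons by the probe used, and Asns because it carries the element of the other arm.
Hspa5, ERSE, chr2:34772005-34772063, + strand: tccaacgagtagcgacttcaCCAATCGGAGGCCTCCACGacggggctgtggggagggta
Creld2, ERSE, chr15:88819500-88819558, + strand: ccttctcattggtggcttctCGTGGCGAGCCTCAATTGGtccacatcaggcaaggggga
Derl3, ERSE, chr10:75893222-75893280, + strand: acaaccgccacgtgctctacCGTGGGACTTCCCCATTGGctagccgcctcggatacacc
Syvn1, ERSE, chr19:6046512-6046570, + strand: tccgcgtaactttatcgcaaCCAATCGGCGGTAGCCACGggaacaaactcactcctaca
Pdia6, ERSE, chr12:17266471-17266529, + strand: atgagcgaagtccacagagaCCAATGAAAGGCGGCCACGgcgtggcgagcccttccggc
Canx, ERSE, chr11:50325780-50325838, − strand: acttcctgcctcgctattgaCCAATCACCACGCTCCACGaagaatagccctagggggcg
Herpud1, ERSE-II, chr8:94386357-94386407, + strand: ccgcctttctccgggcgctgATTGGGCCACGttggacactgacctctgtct
Asns, CEBP-ATF element, chr6:7693210-7693252, − strand: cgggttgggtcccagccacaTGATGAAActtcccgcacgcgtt

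**Figure D2:**
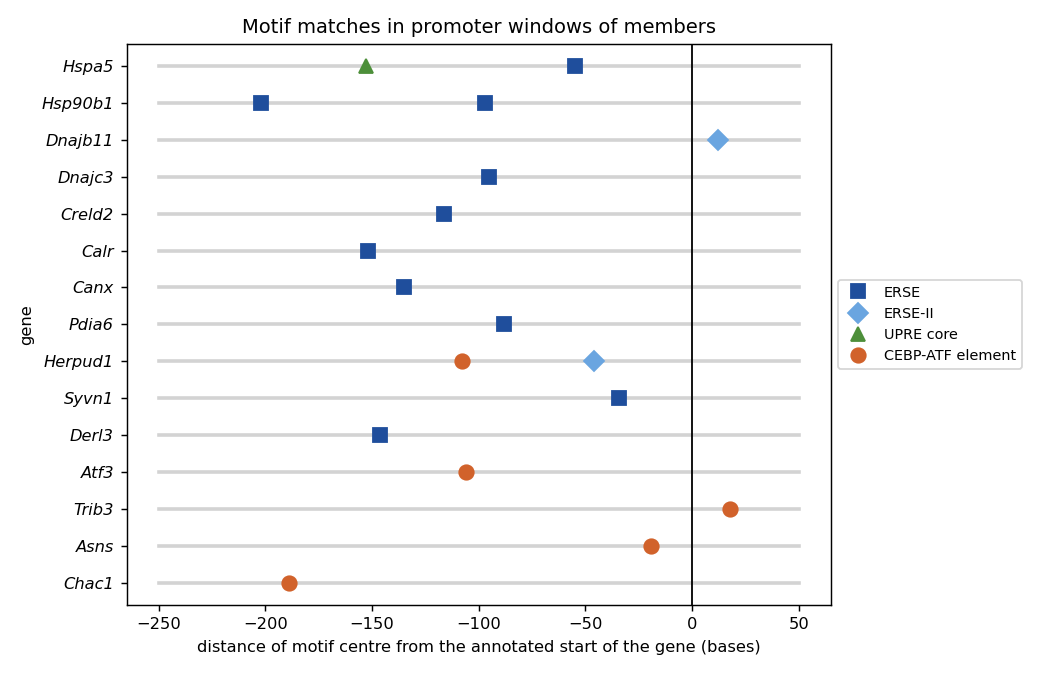
Distance of each motif's centre from the annotated start of the gene, in bases, in the 300 bases searched (grey lines), for the members with a match. Most ERSE matches lie upstream of the start, from −202 in Hsp90b1 to −34 in Syvn1, and the CEBP-ATF element of Asns is centred at −19.

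ER folding genes were lower in Hypox than in sham males. Of the 36 members, 25 were called lower and 1 higher in Hypox over sham males, where 18.6% of all genes tested were called lower and 18.8% higher. The members' median was −0.69 against 0.01 for all genes. The XBP1/ATF6-type genes account for most of this, with 22 of 26 lower, none higher (all 26 had an estimate at or below 0) and a median of −1.09, which was −1.12 and −1.05 on the separate arrays. In whole liver, fewer cells of a type and less RNA per cell cannot be told apart.

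Among the chaperones of the ER lumen, all 9 members were lower. Sdf2l1, a partner of the BiP co-chaperones, was at −2.58 and −2.68, an estimate of −2.63 ± 0.32 or 6.2-fold lower (limma, adjusted p = 3.6e-05). Creld2, an ER stress protein, was at −2.25 and −2.62, or 5.42-fold lower (−2.44 ± 0.22, adjusted p = 4.3e-06). These were the deepest falls in the group, and the 2 arrays lay close together for both. Hspa5, which encodes BiP, the main ER chaperone of the Hsp70 family, was at −1.59 and −1.25 (−1.42 ± 0.2, 2.67-fold lower, adjusted p = 0.00015). Hyou1, which recharges BiP with nucleotide, was at −1.58 and −1.52 (2.93-fold lower, adjusted p = 0.00071). Of the BiP co-chaperones, Dnajb11 was 3.01-fold and Dnajc3 2.6-fold lower, while Dnajb9 was at −0.58 and −0.98, or 1.71-fold lower. Manf, a small secreted ER protein, was at −1.49 and −1.66 (2.99-fold lower, adjusted p = 0.00025). Hsp90b1, the ER member of the Hsp90 family, was at −0.87 and −0.7 (1.72-fold lower).

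The lectin chaperones, which hold glycoproteins while they fold, differed from each other. Calr was at −1.23 and −1.08 (−1.15 ± 0.14, 2.22-fold lower, adjusted p = 3.3e-05), while Canx, its membrane-bound relative, was at −0.19 and −0.14 and was not called (adjusted p = 0.084). This value of Canx depends on the probe: 2 dimmer probes, well above background in 44 channels, gave −0.44 and −0.57. Among disulfide isomerases 3 fell and 1 was not called. Pdia6 was at −1.37 and −1.58 (2.78-fold lower), Pdia3 at −1.16 and −1.03 and Pdia4 at −1.08 and −1.09 (both 2.13-fold lower). P4hb, the classical protein disulfide isomerase, had an estimate of −0.1 and was not called. By the probes used, Canx and P4hb gave small values beside neighbours of the same role that fell by more than 1 on the log2 scale.

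Among genes of ER-associated degradation, which returns misfolded proteins to the cytosol, Derl3 fell most. This derlin was at −2.45 and −2.57 (−2.51 ± 0.14, 5.69-fold lower, adjusted p = 6.3e-08), whereas Derl2 was at −0.47 and −0.72 (1.51-fold lower) and Derl1 had an estimate of 0. The value of Derl1 depends on the probe, since its 3 other probes gave −0.68, −0.49 and 0.39. Syvn1, the ubiquitin ligase of this route, was at −1.35 and −1.16 (2.38-fold lower, adjusted p = 6.8e-05), with −0.41 by a much dimmer probe. Herpud1, which joins the ligase complex, was at −1.16 and −1.25 (2.31-fold lower, adjusted p = 0.00011). Sel1l, the ligase's partner, was at −0.48 and −0.49 (1.4-fold lower). The import genes were lower as well: Sec61a1 and Sec61b, subunits of the translocation channel, were 1.49-fold and 1.52-fold lower, Ssr1, of the translocon-associated complex, 1.38-fold and Sec63 1.29-fold lower. Of the sensors, Ern1 was at −0.5 and −0.19 (1.27-fold lower, adjusted p = 0.0017). Xbp1 was at −0.44 and −0.13 and was not called (adjusted p = 0.18), so the fall of these 22 genes came with a small, uncalled value for the factor's own transcript.

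The 7 ATF4-type genes went in both directions in males without a pituitary, with a median of 0.18. Asns, which makes asparagine, was at −1.51 and −1.95 (−1.73 ± 0.18, 3.32-fold lower, adjusted p = 1.2e-05). Chac1, which breaks down glutathione, was at −2.82 and −1.26 (−2.04 ± 0.33, 4.11-fold lower, adjusted p = 0.00036). Ddit3, which encodes the stress factor CHOP, was higher, at 0.95 and 0.51 (0.73 ± 0.17, 1.66-fold, adjusted p = 0.0038). Atf3, another stress factor of this arm, was at 1.09 and 0.77 and was not called (adjusted p = 0.14). Trib3, a pseudokinase that ATF4 raises, was at 0.39 and −0.04, and Ppp1r15a, which reverses PERK's action on translation, at 0.48 and 0.28; neither was called.

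Related genes were read in the same comparison. Of 40 other ER folding and secretory genes tested, 23 were lower and 1 higher, with a median of −0.32. The largest falls were those of Ero1b, an ER oxidase (−1.56 and −1.72), Serp1, which stabilises membrane proteins (−1.32 and −1.05), and Creb3l2, a membrane-bound transcription factor (−1.25 and −0.79), and the 1 rise was that of Erlec1, an ER lectin (0.26 and 0.3). All 8 cytosolic heat shock genes tested were lower too, by a median of −2.38, with Hsph1 at −3.25 and −3.33. Of 27 other ATF4 targets, 12 were lower, led by Cebpb (−1.62 and −1.39), Ddit4 (−1.49 and −1.37) and Psph (−0.67 and −0.99), and 4 higher, led by Vldlr (3.61 and 3.48), Cth (1.62 and 3.2) and Slc7a5 (0.57 and 0.34). Beside these falls stand those of the muscle markers given above, and plasma cell markers, which mark another secretory cell, had medians of 0.57 and 0.34. The 6 tested ran from Jchain (−0.09 and −0.43) to Pou2af1 (1.25 and 1.2), and Tnfrsf17 was well above background in 6 of 44 channels. The part of muscle or plasma cell RNA in the result was not tested. Without replicate 1 or without replicate 2 of this comparison, 22 to 23 members were called.

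Fewer members were called in females. In Hypox over sham females 6 members were lower and 3 higher, where 16.5% of all genes tested were called lower and 14.6% higher. The count of falls is thus near the share of all genes, and that of rises is below it. The members' median was −0.11 against 0 for all genes, and that of the XBP1/ATF6-type genes −0.14, with array medians of −0.03 and −0.22. The females' muscle markers had medians of 0.07 and 0.05. Replicate 2 of this comparison is the array whose Hypox channel had the lowest share of spots well above background, 57.1%. What that array adds to the values below was not tested.

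The co-chaperone Dnajc3 was at −0.66 and −1.46 (−1.06 ± 0.14, 2.08-fold lower, adjusted p = 0.00013) by the probe used, and at −0.58, −0.46 and −0.43 by its 3 other probes. Herpud1 was at −0.99 and −0.65 (1.77-fold lower, adjusted p = 0.0024). Creld2 was at −0.37 and −1.09 (1.66-fold lower, adjusted p = 0.025), with arrays that lay further apart than in males. Dnajb11 was 1.49-fold, Derl2 1.35-fold and Calr 1.32-fold lower. A further Derl2 probe, well above background in 44 channels, gave 0.07 in females where the probe used gave −0.43, so the fall of Derl2 in females depends on the probe. Hspa5 was at −0.03 and −0.24 and was not called (adjusted p = 0.68). Neither was Derl3, at −0.16 and −0.51 (adjusted p = 0.092), nor Manf, at 0.29 and −0.47 (adjusted p = 0.83).

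The 3 members that were higher in Hypox females were Ddit3, Eif2ak3 and P4hb. Ddit3 was at 0.9 and 1.13 (1.01 ± 0.17, 2.02-fold, adjusted p = 0.00061), the same direction as in males. Eif2ak3, the PERK sensor, was at 0.48 and 0.47 (1.39-fold, adjusted p = 0.002). P4hb was at 0.16 and 0.29 (1.17-fold, adjusted p = 0.049). Of the other ATF4-type genes, Asns was at 0.06 and 0.54 and Chac1 at −0.34 and −0.69, and neither was called. Atf3 was at 0.28 and −1.7, on opposite sides of 0. Without replicate 2 the comparison called 5 members, and without replicate 1 it called 6.

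Among the other ER folding and secretory genes, 9 of 40 were lower in Hypox females, led by Creb3l3 (−0.63 and −0.82), a hepatocyte factor cut like ATF6, Ero1b (−0.41 and −0.77) and Erp29 (−0.31 and −0.5). The 2 higher were Selenos (0.49 and 0.5) and Stt3a (0.49 and 0.34). Of the 27 other ATF4 targets, 5 were lower, led by Cebpb (−1.69 and −0.95), Sesn2 and Atf5, and 4 were higher, led by Vldlr (1.64 and 1.97), Cth (1.33 and 2.27) and Gdf15 (0.8 and 0.9). Both counts are near the shares of all genes. Of the 8 heat shock genes, 6 were lower, with a median of −0.66.

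**Figure D3:**
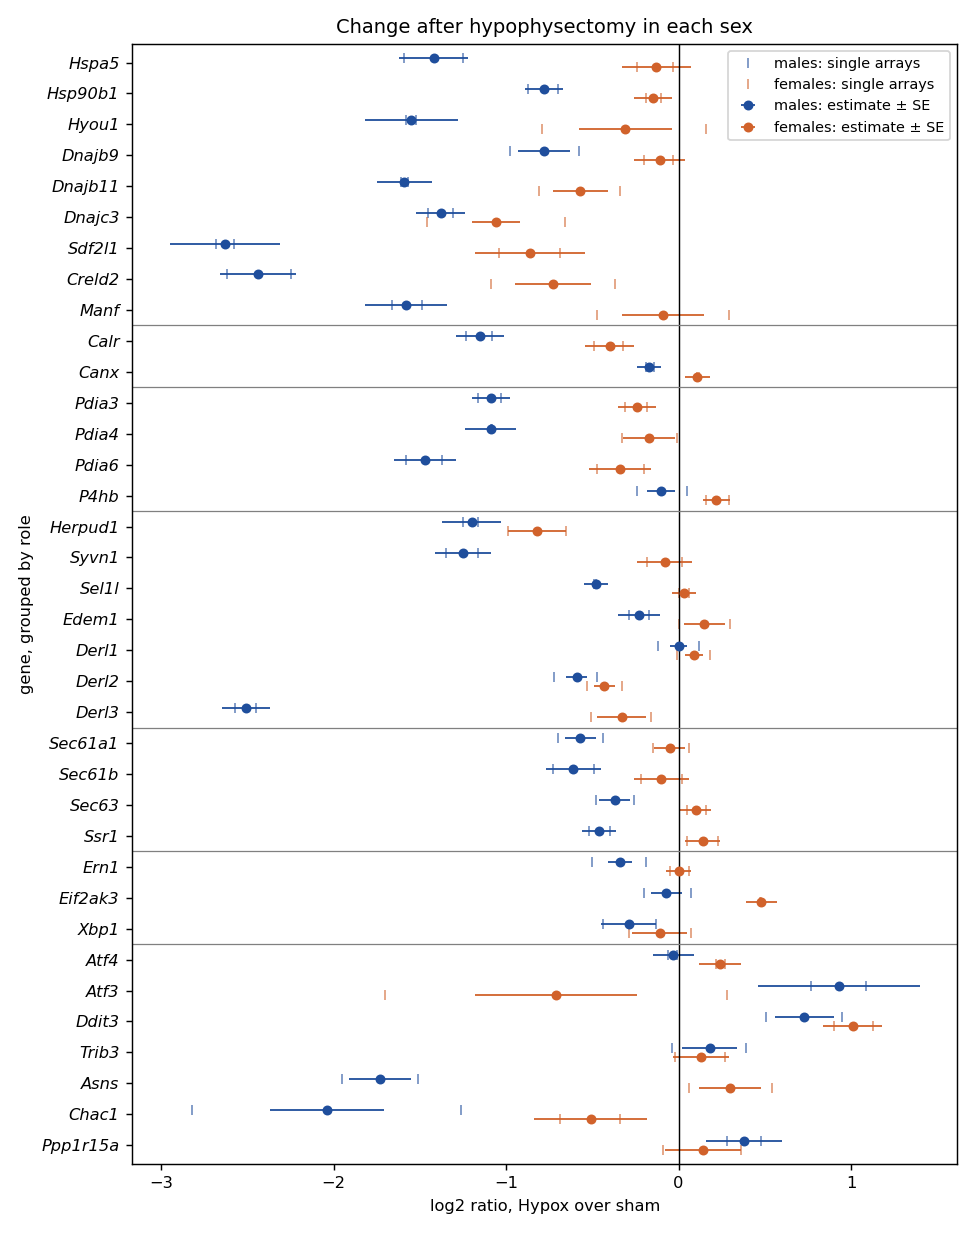
Log2 ratio of Hypox over sham for the 36 measured members in males (blue) and females (orange); dots and bars are the estimate ± SE of the fit, and ticks are the 2 arrays. Males lie left of females for most members, by 2.17 for Derl3 and 2.03 for Asns, while Ddit3 lies right of 0 in both.

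The difference between the sexes in the effect of hypophysectomy was tested within the same fit. It was called for 18 of 36 members, all with a lower value in males, where 3.52% of all genes tested were called that way. The members' median difference was −0.54 against 0.01 for all genes, with 33 of 36 estimates below 0. The called members were 16 of the 26 XBP1/ATF6-type genes, Eif2ak3 and 1 of the 7 ATF4-type genes, Asns. Derl3 had the largest difference, −2.17 ± 0.2 (adjusted p = 3.4e-05). Asns followed at −2.03 ± 0.25 (adjusted p = 0.00049). Sdf2l1 differed by −1.77 ± 0.45 (adjusted p = 0.035) and Creld2 by −1.71 ± 0.32 (adjusted p = 0.0074). The values of Manf (−1.49 ± 0.34) and Hspa5 (−1.29 ± 0.29) came next among the chaperones, and those of Pdia6 (−1.14) and Syvn1 (−1.17) among isomerases and degradation genes. The difference of Chac1 was −1.53 and was not called (adjusted p = 0.071), and Dnajc3 and Herpud1, which were lower in each sex, were not called for a difference either. For Dnajc3 the probe used gave −1.38 in males and −1.06 in females. Its other probes gave −1.12, −1.14 and −0.9 in males and −0.58, −0.46 and −0.43 in females. With 1 array left in each comparison, 2 members were called either way, Derl3 and Asns. Of the other lists, 8 of 40 ER folding and secretory genes were called with a lower value in males, led by Ero1b (−1.05), Creb3l2 (−0.97) and Serp1 (−0.88). So were 6 of 8 heat shock genes, led by Hspa1a (−2.98). The 27 other ATF4 targets split evenly, with Psph (−0.77) and Nars (−0.51) on one side and Vldlr (1.74) and Sesn2 (0.72) on the other.

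The arrays of Hypox males and of Hypox females were scanned on different days, so sex and scan day cannot be told apart in that difference. The same difference can be formed from other arrays, as Hypox males over Hypox females minus sham males over sham females. Both ways share the groups and may share pools of mice, but no array. In the second way the arrays of sham mice and of Hypox mice were scanned on different days, so hypophysectomy and scan day cannot be told apart there. With the same pools, both ways give the same difference apart from array noise, so their likeness says little beyond that noise. The second way called 17 members, all lower, where 3.35% of all genes tested were called lower, with a median of −0.51 over the members. Derl3 was at −2.14 ± 0.2 by this way, Asns at −1.83 ± 0.25, Creld2 at −1.79 ± 0.32 and Hspa5 at −1.26 ± 0.29. These values lie within 1 SE of the first way. Both ways called 15 members. Hsp90b1 (−0.58), Sec63 (−0.45) and Ssr1 (−0.46) lost the call by the second way, and P4hb (−0.5) and Ern1 (−0.37) gained it. Canx went from −0.28 to 0.03 and was called in neither.

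**Figure D4:**
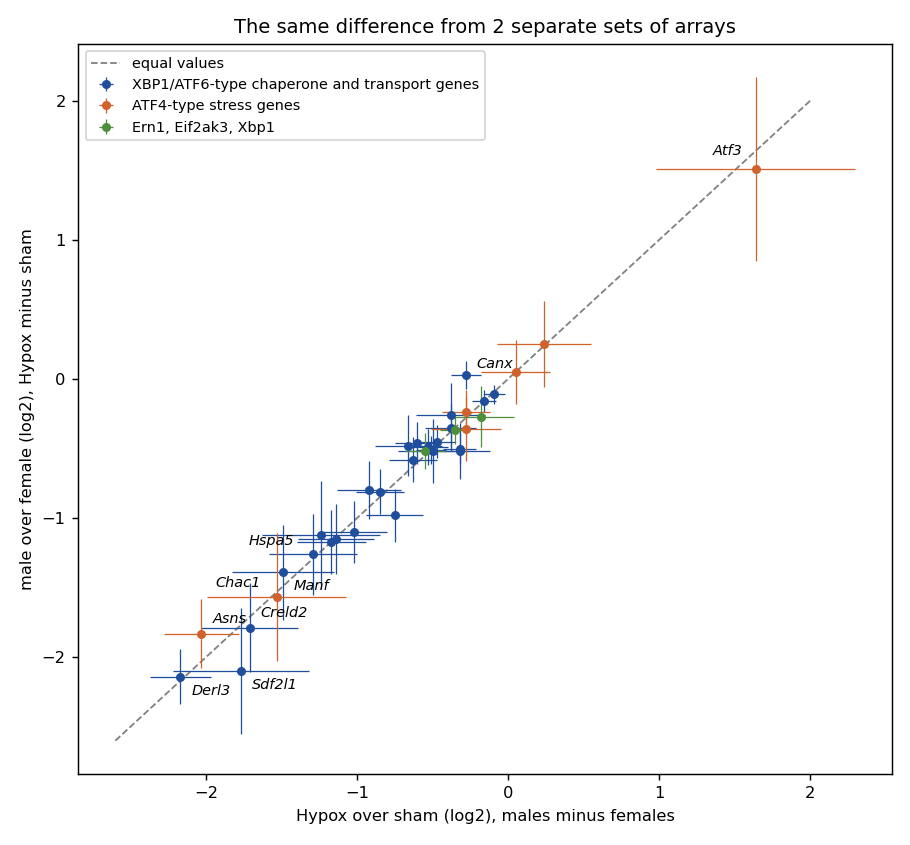
Difference between the sexes in the effect of hypophysectomy (log2, ± SE) from the arrays of Hypox over sham within each sex (horizontal axis) and from the arrays of males over females (vertical axis), for the 36 measured members; the axes share mice but no array. Points lie near the dashed line of equal values, with Derl3 at −2.17 and −2.14, Sdf2l1 at −1.77 and −2.1 and Canx at −0.28 and 0.03.

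The sexes were also compared directly. In sham mice, 12 members were higher in males and none lower, where 5.02% of all genes tested were called higher and 3.74% lower. The members' median was 0.39 against −0.01 for all genes, and 34 of 36 estimates were above 0. Of the 26 XBP1/ATF6-type genes 10 were called, with a median of 0.51, and the array medians were 0.61 and 0.33. Derl3 was at 2.07 and 2.28 (2.18 ± 0.14, 4.52-fold higher in males, adjusted p = 5.2e-07), and Asns at 1.82 and 2.3 (2.06 ± 0.18, 4.17-fold, adjusted p = 8.8e-06). Both arrays were high for these 2 genes, and no other member reached their level. Sdf2l1 was at 1.63 and 0.88 (2.39-fold, adjusted p = 0.026) and Creld2 at 1.27 and 0.76 (2.02-fold, adjusted p = 0.013). Syvn1 was at 1.2 and 0.36 (1.72-fold, adjusted p = 0.0087; 0.18 by its dimmer probe), and Calr, Pdia3, Pdia4 and Pdia6 were between 1.49-fold and 1.57-fold higher. Sel1l was 1.29-fold, Eif2ak3 1.27-fold and Derl2 1.19-fold higher. Replicate 1 gave the larger value for most chaperones: Hspa5 was at 1.17 and 0.08, Manf at 1.23 and 0.24 and Hyou1 at 1.04 and 0.13, and none of these was called. Xbp1 was at 0.41 and −0.48. Of the 40 other ER folding and secretory genes 8 were higher in males, led by Ero1b (0.92 and 0.54), Serp1 (0.93 and 0.1) and Creb3l2 (0.75 and 0.17). Of the 8 heat shock genes 6 were higher, led by Hspa1a (2.73 and 2.46), and of the 27 other ATF4 targets 5 were higher and 3 lower. The muscle markers were high on both arrays, as given above, and 6 macrophage markers were low, with medians of −0.49 and −0.84; their part in the result was not tested. Without replicate 1 the count was 3 (2 higher, 1 lower), and without replicate 2 it was 8.

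Few members were called between the sexes after hypophysectomy. In Hypox males over Hypox females 1 member, P4hb, was called, at −0.37 and −0.35 (−0.36 ± 0.08, 1.28-fold lower in males, adjusted p = 0.046), where 0.763% of all genes tested were called lower. At an unadjusted p under 0.05, 14 members passed, and the share of all genes at that threshold is not given here. The median was −0.21, with 27 of 36 estimates below 0. Of the lumen chaperones, Dnajb9 had an estimate of 0.03. The others lay below 0, down to −0.66 for Manf, −0.77 for Creld2 and −0.85 for Sdf2l1. None of these was called, and in sham mice all lumen chaperones had estimates above 0. The 2 arrays of Hypox males over Hypox females correlated at 0.256 over all genes. Derl3 was at −0.06 and 0.13 and Asns at 0.53 and −0.06, the genes that were most male-biased in sham mice. Hspa5 was at −0.09 and −1.18 and was not called (adjusted p = 0.14). Without either replicate the count was 0.

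The members' first response to GH was read 30 min after 1 injection, in comparisons that share the Hypox mice with those above. No member was called in males, where 2.5% of all genes tested were called in either direction, or in females, where 0.0191% were. By limma at an unadjusted p under 0.05, 3 members passed in males and 1 in females. The members' estimates in males ran from −0.46 for Ddit3 to 0.34 for Asns, and in females from −0.5 for Hyou1 and Creld2 to 0.32 for Sec61b. Xbp1 was at 0.08 and 0.03 in males and at 0.07 and 0.1 in females. In males over females at this time none was called, where 0.504% of all genes were, and 3 passed at an unadjusted p under 0.05. Asns was at 0.68 and 1.08 on those arrays (adjusted p = 0.058). The difference between the sexes at 30 min called none of the members (3 at an unadjusted p under 0.05), where 0.00382% of all genes were called.

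At 90 min Xbp1 stood alone among the members in males. It was at 1.43 and 1.32 (1.37 ± 0.16, 2.59-fold higher, adjusted p = 0.00047), the 1 member called, where 3.4% of all genes tested were called higher. In females Xbp1 was at 0.87 and 0.94 (0.9 ± 0.16, 1.87-fold, adjusted p = 0.0097), where 2.34% were called higher. The 4 arrays lay above all 4 arrays of 30 min. The rise from 30 to 90 min was called in males (1.32 ± 0.22, adjusted p = 0.013), where 1.39% of all genes were called higher. In females it called no member (4 at an unadjusted p under 0.05), where 0.153% of all genes were called. The difference between the sexes at 90 min called no member (4 at an unadjusted p under 0.05), where 0.00763% of all genes were called. The 26 XBP1/ATF6-type genes, classed by role, had medians of 0.04 in males and −0.13 in females at this time, with 0 called higher in each. Hspa5 was at −0.16 and 0.54 in males. With 1 array of each comparison left, Xbp1 remained the called member in males, and it was not called for the rise from 30 to 90 min. Without the 4 arrays that alone of their pair carried muscle or acinar markers, Xbp1 was at 1.23 in males and was no longer called.

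In females 4 members were lower at 90 min, where 0.82% of all genes tested were called lower. Ddit3 was at −0.72 and −0.96 (−0.84 ± 0.17, 1.79-fold lower, adjusted p = 0.018) and Herpud1 at −0.54 and −0.84 (1.62-fold lower, adjusted p = 0.042). Eif2ak3 was 1.31-fold and P4hb 1.25-fold lower. Ddit3, Eif2ak3 and P4hb are the 3 members that were higher in Hypox over sham females, a comparison that shares the Hypox females. Replicate 2 lay lower than replicate 1 as a whole, with array medians of 0.06 and −0.35 over the 26 XBP1/ATF6-type genes. When each array was centred on its median in place of the loess curve, the median of all genes tested was 0.24 in this comparison, against 0.01 with loess. P4hb and Eif2ak3 moved by more than that median, from −0.32 and −0.39 to 0.28 and 0.24. Without replicate 1 the count of called members was 2, and without replicate 2 it was 0, with Xbp1 lost both times. In males Ddit3 was at −0.49 and −0.5 and was not called (adjusted p = 0.12). Atf3 was at 1.31 and 0.7 in males and at 1.2 and 0.99 in females, and was called in neither (adjusted p = 0.27 and 0.29). Of the other lists, Creb3l2 was higher in males at 90 min (0.36 and 0.58), the 1 call among 40. Of the 27 other ATF4 targets 2 were higher and 3 lower in males, with Cebpg at 0.43 and 0.53 and Cth (−0.98) the largest fall, and 2 were lower in females, Atf5 (−0.74) and Psph (−0.35). In males at 90 min 1.58% of all genes tested were called lower.

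After 2 injections the ER folding genes were higher in males. With 27 members higher and none lower, this was the largest count of rises over the 11 comparisons. Of all genes tested, 10.6% were called higher and 8.7% lower. The members' median was 0.56 against −0.01 for all genes. Of the 26 XBP1/ATF6-type genes 22 were called, with a median of 0.56 that was 0.69 on replicate 1 and 0.51 on replicate 2. All 9 chaperones of the ER lumen were among them. Manf was at 1.87 and 1.55 (1.71 ± 0.24, 3.27-fold, adjusted p = 0.00037). Sdf2l1 was at 1.71 and 1.33 (2.87-fold, adjusted p = 0.0045) and Creld2 at 1.64 and 1.34 (2.8-fold, adjusted p = 0.00055). Hspa5 was at 1.14 and 1.82 (1.48 ± 0.2, 2.79-fold, adjusted p = 3e-04). These 4 chaperones were high on both arrays. Dnajb9, a co-chaperone that XBP1 raises, was at 1.3 and 1.49 (2.63-fold, adjusted p = 6.9e-05). Hyou1 was 2.3-fold and Dnajb11 2.21-fold higher, whereas Dnajc3, at 0.76 and 0.14, was 1.37-fold higher.

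Members of the other roles were higher too. Syvn1 was at 1.29 and 1.26 (2.42-fold, adjusted p = 0.00018), though at 0.03 by its dimmer probe. Pdia6 was at 0.78 and 0.86 (1.77-fold) and Calr at 0.6 and 0.5 (1.47-fold). Ssr1 was at 1.13 and 0.77 (1.93-fold, adjusted p = 6.8e-05) and Sec61a1 at 0.87 and 0.51 (1.61-fold), larger than their 1.38-fold and 1.49-fold falls after hypophysectomy. Derl1 and Edem1, a mannosidase-like protein of ER degradation, were 1.26-fold and 1.32-fold higher. The sensors and their factor were called as well. Ern1 was at 0.75 and 0.72 (1.67-fold, adjusted p = 2.8e-05), Eif2ak3 at 0.75 and 0.91 (1.78-fold, adjusted p = 7.9e-05) and Xbp1 at 1.05 and 0.74 (1.86-fold, adjusted p = 0.0016). Derl3, the degradation gene that had fallen most after hypophysectomy, was at −0.13 and 0.29 and was not called (adjusted p = 0.79).

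Of the 7 ATF4-type genes 2 were higher after 2 injections in males. Asns was at 1.21 and 1.45 (1.33 ± 0.18, 2.51-fold, adjusted p = 0.00028) and Atf4 itself at 0.43 and 0.48 (1.37-fold, adjusted p = 0.015). Their median was −0.09. Chac1 was at −1.21 and −0.63 and was not called (adjusted p = 0.07), and Ddit3 (−0.01 and −0.16), Trib3 (−0.17 and −0.05) and Ppp1r15a (0 and −0.26) lay near 0. The deep fall of Chac1 after hypophysectomy was thus followed by another negative value, while Asns went the opposite way. Of the 27 other ATF4 targets 8 were higher, led by the tRNA synthetases Aars (0.95 and 0.68), Nars (0.87 and 0.61) and Mars1 (0.66 and 0.62), and 2 lower, Fgf21 (−0.69 and −1.13) and Cth (−1.19 and −0.38). Of the 40 other ER folding and secretory genes 28 were higher, led by Sec23b (1.79 and 1.3), a coat protein of ER export, Serp1 (1.24 and 1.43) and Wfs1 (1.2 and 1.07), and of the 8 heat shock genes 5 were higher.

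Replicate 2 of this comparison carried muscle and acinar RNA, at medians of 2.97 and 3.65 over the 10 and 9 markers, and on replicate 1 these were 0.01 and 0.48. The medians of the 26 XBP1/ATF6-type genes on each array are given above, and the part of this RNA in the result was not tested. Without replicate 2 the count of called members was 17, without replicate 1 it was 12, and without the 4 such arrays of all comparisons it was 16.

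In females 2 injections raised 7 members and lowered none, where 4.4% of all genes tested were called higher and 4.03% lower. The members' median was 0.23 against 0 for all genes, with 30 of 36 estimates above 0. Those called were Dnajb9 at 0.52 and 0.89 (0.7 ± 0.15, 1.63-fold, adjusted p = 0.016), Xbp1 at 0.68 and 0.69 (1.61-fold, adjusted p = 0.021) and Ssr1 at 0.64 and 0.57 (1.52-fold, adjusted p = 0.0054), with Sec61a1, Eif2ak3, Ern1 and Derl1 between 1.15-fold and 1.41-fold higher. Import genes and sensors made up most of the 7. The lumen chaperones were mostly above 0 without a call: Manf was at 0.82 and 0.82 (adjusted p = 0.055), Creld2 at 0.57 and 0.44 (adjusted p = 0.2) and Hspa5 at 0.06 and 0.85 (adjusted p = 0.2). Asns was at 0.09 and 0.03, and the 7 ATF4-type genes had a median of −0.05 with none called. Of the other ER folding and secretory genes 14 of 40 were higher, led by Serp1 (0.55 and 0.9), Sec23b (0.69 and 0.75) and Wfs1 (0.54 and 0.65), and of the 27 other ATF4 targets Nars (0.49 and 0.33) and Mars1 (0.22 and 0.37) were higher and Gpt2 lower. The muscle markers stood at −3.39 and −3.1 in this comparison, and their part in the result was not tested. With 1 array left, no member was called.

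The difference between the sexes after 2 injections was called for 2 members, both higher in males, where 1.11% of all genes tested were called that way. Asns differed by 1.27 ± 0.25 (adjusted p = 0.032) and Ern1 by 0.43 ± 0.1 (adjusted p = 0.045). The median difference of the members was 0.33, and 32 of 36 estimates were above 0. At an unadjusted p under 0.05, 14 passed, without the share of all genes at that threshold. The arrays of males and of females were scanned on different days, against Hypox pools of 5 mice in males and 2 mice in females. Sex, scan day and reference pool cannot be told apart in that difference. For the other members a difference was not called, which does not show that there was none. The larger count of calls in males, 27 against 7, thus came with a called difference between these arrays for Asns and Ern1 only. With 1 array left in each comparison, or without the arrays that alone of their pair carried muscle or acinar markers, neither was called.

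**Figure D5:**
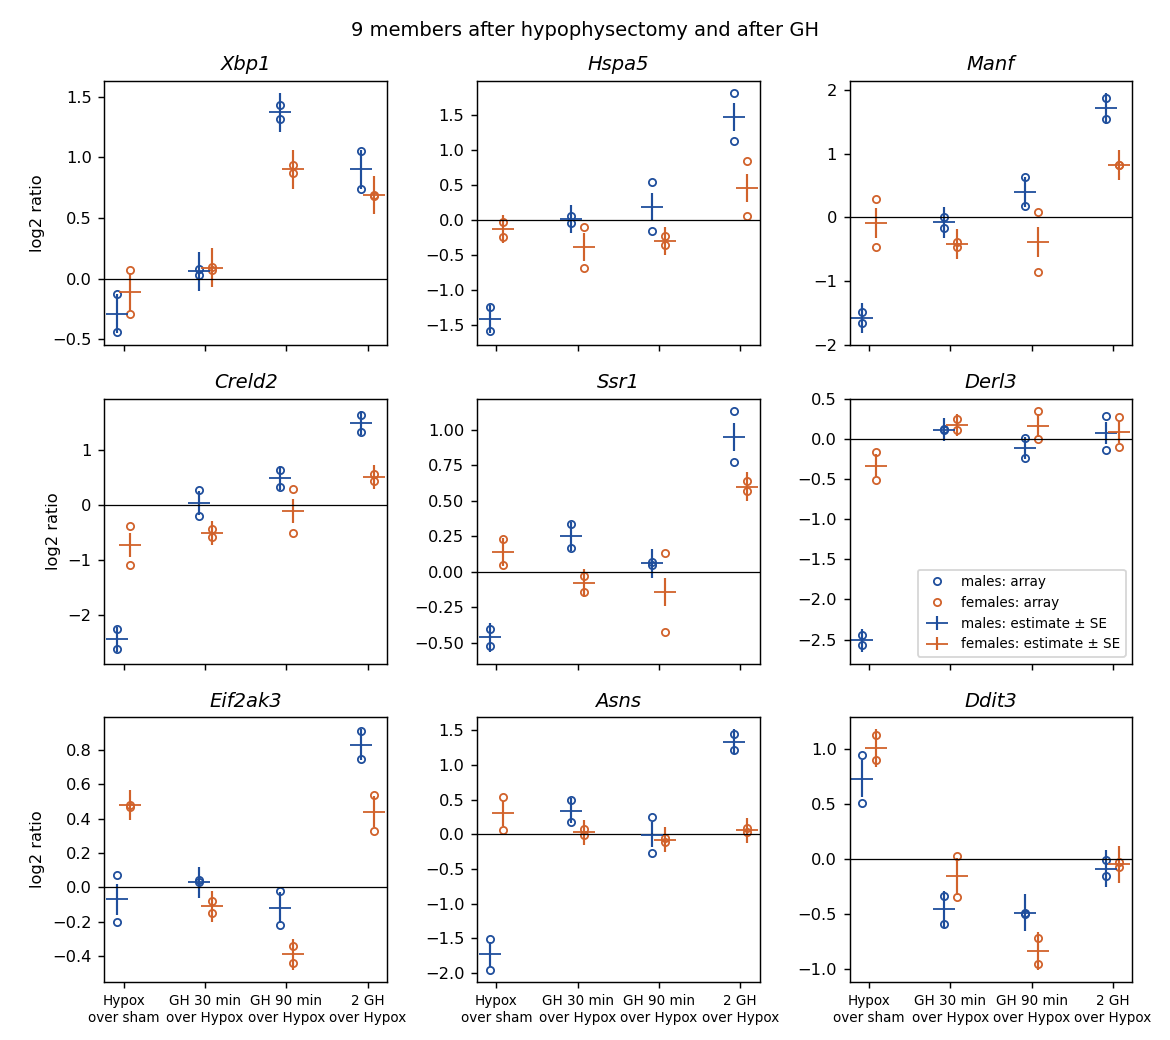
Log2 ratios of 9 members after hypophysectomy (Hypox over sham) and 30 min, 90 min and 2 injections after GH (over Hypox), in males (blue) and females (orange); circles are the 2 arrays and crosses the estimate ± SE, and vertical scales differ between panels. Xbp1 is higher 90 min after 1 injection (1.37 in males, 0.9 in females), and Hspa5 and Creld2 are higher in males after 2 injections (1.48 and 1.49). Both time and number of injections differ between these points. Derl3 stays near 0 after GH.

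The members with and without an ERSE or ERSE-II in the window were also set side by side, 11 genes each. In Hypox over sham males 10 of 11 with the element and 9 of 11 without were lower, with medians of −1.38 and −0.59. In females 5 with and 1 without were lower, with medians of −0.34 and −0.1. After 2 injections in males 9 of 11 were higher in each set, with medians of 0.61 and 0.5. After 2 injections in females 0 with and 2 without were higher, with medians of 0.26 and 0.19. In sham males over sham females 5 of each set were higher, with medians of 0.59 and 0.37. Canx, whose ERSE is printed above, had the value nearest 0 of its set in males by the probe used (−0.17), and Sdf2l1, with none in its window, the deepest of all members (−2.63). These are descriptions, with no test between the sets.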

How the data were processed

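Liver RNA pools were compared on 22 two-colour Agilent arrays. For every spot and channel, the scanner files as deposited give a mean signal intensity, a background intensity (median) and flags, with 1 log10 ratio of the processed signals per spot, per the file headers. A table of log2 ratios was deposited as well, described as normalized per the labels. Set against the scanner output, every column of that table was within 0.005 of a log10 ratio turned to log2. In 6 columns the replicate number was the same as in the scanner file, and in 16 it was that of the partner array. Scanner file numbers are used here. Dyes in the labels (Alexa 555 read in green, Alexa 647 in red) set the direction of every ratio.

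Signals were background corrected with limma's normexp (offset 50) and normalized by loess within arrays, with control spots at weight 0 and outlier flags left out. Spots were averaged over 41174 probes, 22082 of which matched a symbol, 10 of them by gene name. The brightest probe on average stood for each of the 33767 gene names. To be tested, a gene had to be well above background in 1 or both channels of each array in some comparison, which 26207 were. Where 12 members had several probes, 1 of the 88 called values within comparisons had a probe with the opposite sign. One limma model (version 3.58.1, R 4.3.3) held 11 comparisons and a dye term per gene. It left 10 residual degrees of freedom, and 2872 genes had a dye effect. The number of arrays limits the precision: the SE comes from the whole fit and is about the same for a gene in every comparison. The steps were tested on simulated data. Alternatives were median centring, the scanner's ratio, no filter, the mean of all probes, slide as a random block, a replicate block and each replicate left out. Alternatives added after seeing the data left out 4 arrays with lone muscle or acinar signal, or took differences from other arrays.

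The members and all gene lists were chosen with earlier results of these data known. All 37 members are described by role, with both arrays for called members (at most 12 per comparison with full statistics), and for the other pathway lists the 3 largest called changes each way. Genes outside that rule were named after their values were seen. Promoters come from RefSeq (GRCm38.p6). Protein sequences were not used here.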

Additional observations from a re-analysis of the deposited data

Results flagged for a closer look

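Effects that differed between the sexes or between times by a test of the difference itself are given here as values (limma, Benjamini-Hochberg adjusted p over all genes tested). For hypophysectomy, males minus females, the chaperones differed by −1.29 for Hspa5 (−1.42 in males, −0.13 in females), −0.63 for Hsp90b1, −1.02 for Dnajb11, −1.77 for Sdf2l1, −1.71 for Creld2, −1.49 for Manf and −0.75 for Calr. The isomerases differed by −0.85 for Pdia3, −0.92 for Pdia4 and −1.14 for Pdia6. The degradation genes differed by −1.17 for Syvn1, −0.51 for Sel1l and −2.17 for Derl3, and the import genes by −0.53 for Sec61a1, −0.47 for Sec63 and −0.6 for Ssr1. Sel1l, Sec63 and Ssr1 had estimates above 0 in females (0.03, 0.1 and 0.14) and below 0 in males. Eif2ak3 differed by −0.55 (−0.07 in males, 0.48 in females), and Asns by −2.03 (−1.73 in males, 0.3 in females). The adjusted p of these 18 ran from 3.4e-05 for Derl3 to 0.039 for Sec63.

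After 2 GH injections, males minus females, Asns differed by 1.27 and Ern1 by 0.43. For hypophysectomy and for 2 injections alike, the arrays of males and of females were scanned on different days. In males Xbp1 rose between 30 and 90 min after GH by 1.32.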

How the results depend on the processing

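The counts of called members kept within 1.5 times their value without the filter on dim probes and with the mean of all probes. Centring each array on its median, without the loess curve, changed most: in males Hypox over sham kept 18 of 26 calls, while the counts became 3 for sham males over sham females, 2 for Hypox over sham females, 0 for Hypox males over Hypox females, 3 for females at 90 min (all higher), 12 for 2 injections in males, 0 for 2 injections in females, 3 for the sex difference after hypophysectomy, 0 for that after 2 injections and 0 for 90 against 30 min in males. Over all genes it called 2991 in Hypox over sham males. The median of all genes became 0.24 in females at 90 min, and there P4hb and Eif2ak3 turned from falls to 0.28 and 0.24. With the scanner's ratio, Hypox males over Hypox females and the sex difference after 2 injections both gave 0. Slide as a random block gave 1 for males over females at 30 min. Without the 4 arrays with lone muscle or acinar signal, the counts were 0 for Hypox males over Hypox females, 0 for males at 90 min, 3 for females at 90 min (2 higher, 1 lower), 16 for 2 injections in males, 0 for the sex difference after 2 injections and 0 for 90 against 30 min in males. The cause of these changes was not tested. Of 109 called values of single members, 42 kept their call under median centring, 97 with the scanner's ratio and 82 without the 4 arrays.

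Leaving out 1 replicate leaves 1 array, which is assumed to vary like the others. Counts then ran from 3 to 8 for sham males over sham females, 22 to 23 for Hypox over sham males, 5 to 6 for Hypox over sham females, 0 to 0 for Hypox males over Hypox females, 1 to 1 for males at 90 min, 0 to 2 for females at 90 min, 12 to 17 for 2 injections in males, 0 to 0 for 2 injections in females, 2 to 2 for the sex difference after hypophysectomy, 0 to 0 for that after 2 injections and 0 to 0 for 90 against 30 min in males.

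Before the dye term, same-numbered deviations correlated between −0.485 and 0.723 over 55 pairs of comparisons, with 28 over 0.1. Dye effects are still in these values and most of the pairs share no group. They cannot show whether the numbers pair the arrays. After the dye term, the 4 pairs of comparisons that share a sham or a 30 min GH group all had the sign a shared pool gives. They were at 0.596 for sham females, −0.351 for sham males, and 0.871 and −0.336 for males and females at 30 min. Pairs that share no group ran from −0.301 to 0.406, and −0.351 and −0.336 are no larger in size than 0.406. The hint that those pools recur under 1 number is thus weak. Of the 20 pairs that share a Hypox group, 7 had the sign a shared pool gives beyond 0.1 and 10 the opposite one. A model of single pools was not run. With the replicate block the sex difference after 2 injections had 4 calls in place of 2, sham males over sham females had 17 in place of 12, and no count but the first moved by over 1.5 times. P4hb lost its call under the block in each of its 3 comparisons. A block for scan day could not be fitted, since both arrays of a comparison share a day. Of the limits, pools recur between arrays, and 2 arrays carry each comparison. Signal over background does not limit the members, which were well above background in nearly all channels.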

Other observations

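In both comparisons that hold sham females, the early-response gene Atf3 lay on opposite sides of 0 on the 2 arrays. It was at 0.08 and −2.19 in sham males over sham females, and at 0.28 and −1.7 in Hypox over sham females. Cish, an early GH target, was at 0.51 and −3.17 in sham males over sham females and at −4.21 and −0.61 in Hypox over sham males, while in Hypox over sham females both arrays were low (−4.39 and −3.89, adjusted p = 0.00062). The cause was not tested. Xist was at −0.41 and −1.92 in Hypox over sham females, a comparison within 1 sex, and was called lower (limma, adjusted p = 0.0032).

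The cytosolic heat shock genes, which fold proteins outside the ER, had larger values than the ER members in several comparisons. Hspa1a was at 2.73 and 2.46 in sham males over sham females (adjusted p = 0.00011) and at −3.17 and −3.38 in Hypox over sham males (adjusted p = 4.3e-06). Hsp90aa1 was at −2.87 and −2.86 in Hypox over sham males. After 2 injections Hsph1 was at 1.4 and 0.59 in males (adjusted p = 0.0027), and its sex difference was 1.2 (adjusted p = 0.045). Of the 8 such genes in females after 2 injections, 2 were higher and 2 lower.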
